A study of Homo sapiens with 3 samples.

Results

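The G2 and mitosis genes described here are 52 genes whose transcripts are known to accumulate as cells pass from S phase through G2 into mitosis. They were taken by symbol, and all 52 were found among the 38606 genes of the deposited matrices. They fall into 6 roles, which are cyclin-CDK control and anaphase promotion (9 genes), mitotic kinases and the chromosomal passenger complex (8), centromere and kinetochore (6), spindle, motors and cytokinesis (17), chromosome structure and chromatin (9), and nuclear envelope and transport (3).

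The cells were human embryonic stem cells of the HES3 Mixl1:GFP reporter line, in which GFP reports MIXL1, a gene of the primitive streak. All colonies were grown on micropatterns, which hold a colony to a printed shape, and all received the ROCK inhibitor Y-27632 at 10 µM on seeding, 24 h before treatment. The BMP4 group was then given 50 ng/mL BMP4, the CHIR group 6 µM of the GSK3 inhibitor CHIR99021, and the CHIR+Activin group 3 µM CHIR99021 together with 100 ng/mL Activin A, each for 48 h. About 10 micropatterns per treatment were pooled into 1 library of 10x Genomics 3' single-cell RNA sequencing, so CHIR and CHIR+Activin differ in the CHIR99021 dose as well as in Activin A, no untreated library is described, and no difference has a replicate check or a p-value.

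Entry into mitosis is driven by CDK1 bound to B-type cyclins, and exit follows when the anaphase-promoting complex, with its activator CDC20 and its E2 enzyme UBE2C, marks cyclin B and securin for destruction. Between these steps Aurora kinases, checkpoint kinases, kinetochore proteins and motors build the spindle and attach chromosomes to it. Many of the genes are held down in G1 by the DREAM complex and switched on late in the cycle by MYBL2 and FOXM1, through a promoter element named CHR. Their promoters are also known for CCAAT elements, which are bound by a different factor that has NFYC as a subunit. Pluripotent stem cells cycle fast with a short G1.

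After filtering, the 3 libraries kept 9401 (BMP4), 7084 (CHIR) and 6876 (CHIR+Activin) cells, with medians of 12623, 22919 and 17202 UMIs per cell and 137174566, 185215378 and 130592423 UMIs in all. The libraries shared 8 to 12 cell barcodes per pair. Droplets of the BMP4 library with 10 to 500 UMIs, which hold free RNA, had 0.696% of their UMIs from the 52 genes, against 0.657% in its cells. These transcripts were thus also present outside cells. CHIR and CHIR+Activin came with called barcodes only, so no such share is available for them, and the part of free RNA was not tested. The 8 epiblast-like markers summed to 1616 CPM (UMIs of a gene per 1000000 UMIs, with all cells of a group summed) in BMP4, 2320 in CHIR and 2405 in CHIR+Activin. The 8 nascent mesoderm-like markers summed to 504.5, 8.68 and 43.0 CPM, and the 9 amnion-like markers to 89.8, 9.17 and 8.42 CPM. The 7 genes of the integrated stress response summed to 62.7, 370.1 and 224 CPM. No gene of these lists was at 0 UMIs in any library. The part of cell-type makeup, of stress and of depth in the differences below was not tested.

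The G2 and mitosis genes made up more of the RNA in the BMP4 library than in the other two. Their share of all UMIs in BMP4 was 0.657% (exact 95% interval 0.655 to 0.658). CHIR stood at 0.588% (0.587 to 0.590) and CHIR+Activin at 0.601% (0.599 to 0.602). The intervals, here and below, cover counting error only. The sum in CHIR stood at a log2 ratio of -0.16 to that in BMP4 (-0.16 to -0.15), which is 1.12-fold lower. CHIR+Activin stood at -0.13 to BMP4, 1.09-fold lower, and at 0.03 to CHIR. Among cells of 10000 to under 20000 UMIs alone, a range added after seeing the data, the shares were 0.680%, 0.504% and 0.556%. The log2 ratios were then -0.43 for CHIR and -0.29 for CHIR+Activin to BMP4, and 0.14 between them. That range spans the median depth of BMP4 (12623 UMIs) and leaves out its shallowest and deepest cells. It lies below the median depth of CHIR (22919 UMIs). A list of 43 S phase genes, which act in DNA replication, was nearly level, at 0.435%, 0.431% and 0.434% of UMIs. In a bulk sum of this kind, fewer cells in G2 and mitosis and less RNA of these genes per cell cannot be told apart.

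Single cells gave a wide range within every library. Each cell was thinned to 10000 UMIs, and the 2360, 192 and 333 cells with fewer were not used. The median cell held 63 member UMIs in BMP4 (quartiles 51 to 81), 54 in CHIR (43 to 70) and 56 in CHIR+Activin (44 to 72). No thinned cell held 0. The 90th percentile was 2.19 times the 10th in BMP4, 2.27 times in CHIR and 2.30 times in CHIR+Activin. That spread over cells was wider than the distance between the library medians. It includes the counting error of single cells, which a median over many cells largely averages out. Cells with at least 100 member UMIs, the high tail, were 6.18% of thinned cells in BMP4 (exact 95% interval 5.63 to 6.77), 2.47% in CHIR (2.11 to 2.86) and 2.38% in CHIR+Activin (2.03 to 2.78). Before thinning, cells with at least 1% of UMIs from these genes were 4.41%, 1.79% and 1.38%.

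S phase transcripts were lowest in the cells with the most member transcripts. From the lowest to the highest 10% of cells by member UMIs, the mean member sum of BMP4 went from 37.8 to 103.6 UMIs, that of CHIR from 32.5 to 94.6 and that of CHIR+Activin from 33.0 to 94.9. The mean S phase sum went the other way, from 49.2 to 37.0, 46.3 to 35.2 and 47.7 to 36.3 UMIs. It was near level over the lowest groups, still at 49.4, 47.6 and 48.3 UMIs in group 3 of 10, and fell above them. Across cells, the logs of the 2 sums had Pearson r of -0.40, -0.35 and -0.39, which is a description over cells of 1 library each, and both sums come from the same fixed number of UMIs. Depth before thinning also differed, with medians of 12647 UMIs in the lowest and 14868 in the highest 10% in BMP4, 19000 and 25771 in CHIR, and 15108 and 20378 in CHIR+Activin.

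**Figure D1:**
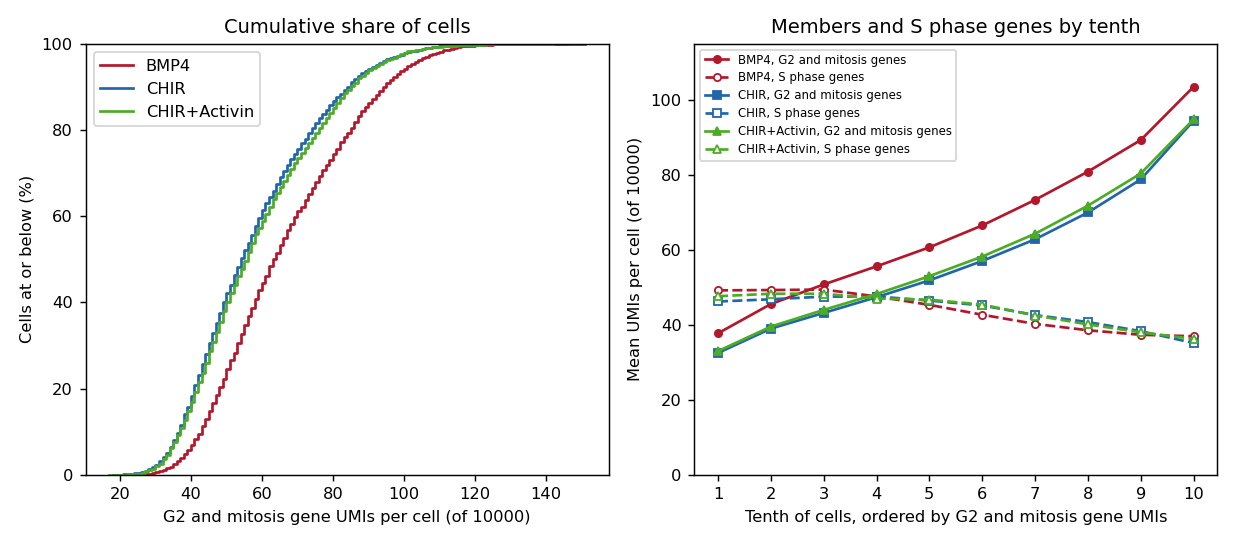
Left, the cumulative percentage of cells (vertical axis) with at most a given number of G2 and mitosis gene UMIs of 10000 (horizontal axis), 1 line per library. Right, mean UMIs per cell of the 52 genes (filled symbols, solid lines) and of the S phase genes (open symbols, dashed lines) in 10 equal groups of cells ordered by the former. The BMP4 line lies to the right of the other lines, with medians of 63 against 54 and 56 UMIs. The S phase means are near level over the lowest groups and go down over the higher ones.

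Gene by gene, most members lay slightly below their BMP4 level and a minority passed the fold used here. All 52 passed the minimum of 10 CPM in either library, and a gene was counted as apart at 1.2-fold or more. Against BMP4, 13 members were lower in CHIR and 2 were higher, where 15.3% of all 10122 genes compared were lower and 22.5% higher. The median member stood at a log2 ratio of -0.16, the median of all genes at 0.03, and 41 of 52 members were below 0 against 45.57% of all genes. No member was 2-fold apart, as 5.94% of genes were. In CHIR+Activin against BMP4, 10 members were lower and 2 higher, where 14.2% of genes were lower and 15.1% higher, with a median of -0.14 for members and -0.01 for all genes, and again no member was 2-fold apart (4.72% of genes). These comparisons share the BMP4 library, so they are given side by side. Between CHIR+Activin and CHIR, 1 member was higher and 0 were lower, where 2.19% of genes were higher and 5.89% lower. No test was run, since there is 1 library per treatment. Among cells of 10000 to under 20000 UMIs, members apart in either direction numbered 39 in CHIR and 34 in CHIR+Activin against BMP4, and 16 between these. The counts thus changed with the cells compared. Depth and the set of cells changed together, and the part of each was not tested. The share of all genes apart in that range was not computed, so these counts cannot be called particular to the members.

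Among the 9 genes of cyclin-CDK control and anaphase promotion, 3 were lower in CHIR than in BMP4 and 2 in CHIR+Activin, and none was higher. CDCA3, which promotes mitotic entry through the turnover of WEE1, stood at 48.6 CPM in BMP4, 31.1 in CHIR and 36.2 in CHIR+Activin. That is a log2 ratio of -0.65 (-0.70 to -0.59) and -0.43 (-0.48 to -0.37) to BMP4, and of 0.22 between CHIR+Activin and CHIR. UBE2C, the E2 enzyme of the anaphase-promoting complex, stood at 373, 269 and 294 CPM. Its log2 ratios to BMP4 were -0.47 (-0.49 to -0.45) and -0.34 (-0.36 to -0.33), so BMP4 was highest and CHIR lowest, as for CDCA3. CCNB2, cyclin B2, stood at 114, 94.0 and 102 CPM and passed 1.2-fold in CHIR alone, and CDK1, its kinase partner, at 127, 109.9 and 110.0 CPM, with a log2 ratio of -0.21 in CHIR and -0.20 in CHIR+Activin, short of 1.2-fold. CDC20, the activator of the anaphase-promoting complex, G2E3, a ubiquitin ligase, and CDC25C, the phosphatase that activates CDK1, had log2 ratios to BMP4 between -0.26 and -0.05. CKS1B and CKS2, small subunits that bind CDKs, stood at 405, 403 and 408 CPM (CKS1B, the most level gene of the group in CHIR against BMP4) and at 347.5, 325 and 345 CPM (CKS2).

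Among the 8 mitotic kinases and passenger proteins, BUB1 went against the rest. BUB1, a kinase of the spindle assembly checkpoint that sits at kinetochores, stood at 80.1 CPM in BMP4, 114.6 in CHIR and 109.3 in CHIR+Activin. It was lowest in BMP4, with log2 ratios of 0.52 (0.48 to 0.55) and 0.45 (0.41 to 0.48), and near level between the other two at -0.07. AURKB, the Aurora kinase of the passenger complex, stood at 96.3, 79.3 and 89.6 CPM, which put CHIR at -0.28 and CHIR+Activin at -0.10 to BMP4. NEK2, a kinase of centrosome separation, stood at 29.1, 25.5 and 23.9 CPM and passed 1.2-fold in CHIR+Activin alone, at -0.28. AURKA, the Aurora kinase of centrosomes and spindle poles, stood at 93.8, 81.3 and 86.3 CPM, short of 1.2-fold. TPX2, which activates AURKA on spindle microtubules, the passenger subunits CDCA8 and BIRC5, and the checkpoint kinase TTK lay between -0.21 and 0.04 in both ratios to BMP4.

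None of the 6 centromere and kinetochore genes was higher than in BMP4, and 2 were lower in both libraries. CENPA, the histone H3 variant that marks centromeres, stood at 70.4 CPM in BMP4, 51.9 in CHIR and 53.5 in CHIR+Activin, at -0.44 (-0.48 to -0.40) and -0.40 (-0.44 to -0.35). CENPE, a kinesin that moves chromosomes to the spindle equator, stood at 122, 92.5 and 98.4 CPM, at -0.39 and -0.31. HJURP, the chaperone that deposits CENPA, did not follow it, at 39.2, 39.1 and 37.5 CPM. CENPF and the microtubule-binding NDC80 and NUF2 stood between -0.22 and -0.16 to BMP4 in both libraries.

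The 17 genes of spindle, motors and cytokinesis held the widest differences in CHIR against BMP4, with 6 lower and 1 higher in CHIR and 4 lower and 1 higher in CHIR+Activin. TUBB4B, a beta tubulin, was the member furthest apart, at 223.5 CPM in BMP4, 138 in CHIR and 174 in CHIR+Activin. Its log2 ratios were -0.70 (-0.72 to -0.68) and -0.36 (-0.39 to -0.34) to BMP4, and it was the 1 member past 1.2-fold between CHIR+Activin and CHIR, at 0.34 (0.31 to 0.37). GTSE1, which stabilises spindle microtubules, stood at 64.0, 48.2 and 51.2 CPM, at -0.41 and -0.32. The spindle proteins CKAP2L (19.2, 15.2 and 15.6 CPM) and PSRC1 (29.5, 24.0 and 24.4 CPM) were lower in both, and NUSAP1 and CKAP2 passed 1.2-fold in CHIR alone. GAS2L3, which links actin and microtubules and acts in cytokinesis, was the second member that was higher, at 12.9 CPM in BMP4, 18.8 in CHIR and 16.0 in CHIR+Activin. GAS2L3 had log2 ratios of 0.55 (0.46 to 0.63) and 0.31 (0.22 to 0.40) to BMP4 and of -0.23 between CHIR+Activin and CHIR. HMMR, a spindle protein, and ECT2, the exchange factor that activates RhoA for the cleavage furrow, were slightly higher outside BMP4, at 0.09 and 0.13 and at 0.13 and 0.05. The other 8, namely the kinesins KIF11, KIF23, KIF2C and KIF20B with TACC3, CKAP5, DLGAP5 and ANLN, lay between -0.25 and 0.02.

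Of the 9 genes of chromosome structure and chromatin, HMGB2 alone passed 1.2-fold. HMGB2, an abundant DNA-bending protein, stood at 460.3 CPM in BMP4, 382 in CHIR and 368 in CHIR+Activin, at -0.27 and -0.32. MKI67, the source of the Ki-67 antigen that coats mitotic chromosomes, stood at 88.0, 73.6 and 79.5 CPM. TOP2A, the topoisomerase that untangles sister chromatids, stood at 232, 224 and 211 CPM, and NCAPD2, a condensin subunit, at 82.2, 83.7 and 81.6 CPM. CBX5, which codes for heterochromatin protein HP1 alpha, was lower in CHIR+Activin than in CHIR, at 278, 260.4 and 236 CPM and a ratio of -0.14 between them. SMC4, the core ATPase of condensin, ANP32E, a chaperone of H2A.Z, CDCA2 and CTCF stood between -0.25 and -0.07 to BMP4.

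None of the 3 nuclear envelope and transport genes passed 1.2-fold in any pair. LBR, the lamin B receptor, stood at 116 CPM in BMP4, 128.5 in CHIR and 129 in CHIR+Activin, at 0.14 and 0.15. TMPO, a lamina-associated protein, stood at 191, 193 and 204 CPM, and RANGAP1, the activator of the Ran GTPase, at 34.8, 32.3 and 35.1 CPM. Over all 52 genes the highest library was BMP4 for 39, CHIR for 7 and CHIR+Activin for 6. The 9 genes lower in both libraries than in BMP4 were UBE2C, CDCA3, CENPA, CENPE, CKAP2L, PSRC1, GTSE1, TUBB4B and HMGB2. Both comparisons share the BMP4 library. The shares of all genes highest in each library, or lower in both, were not computed, so these counts cannot be called particular to the members.

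**Figure D2:**
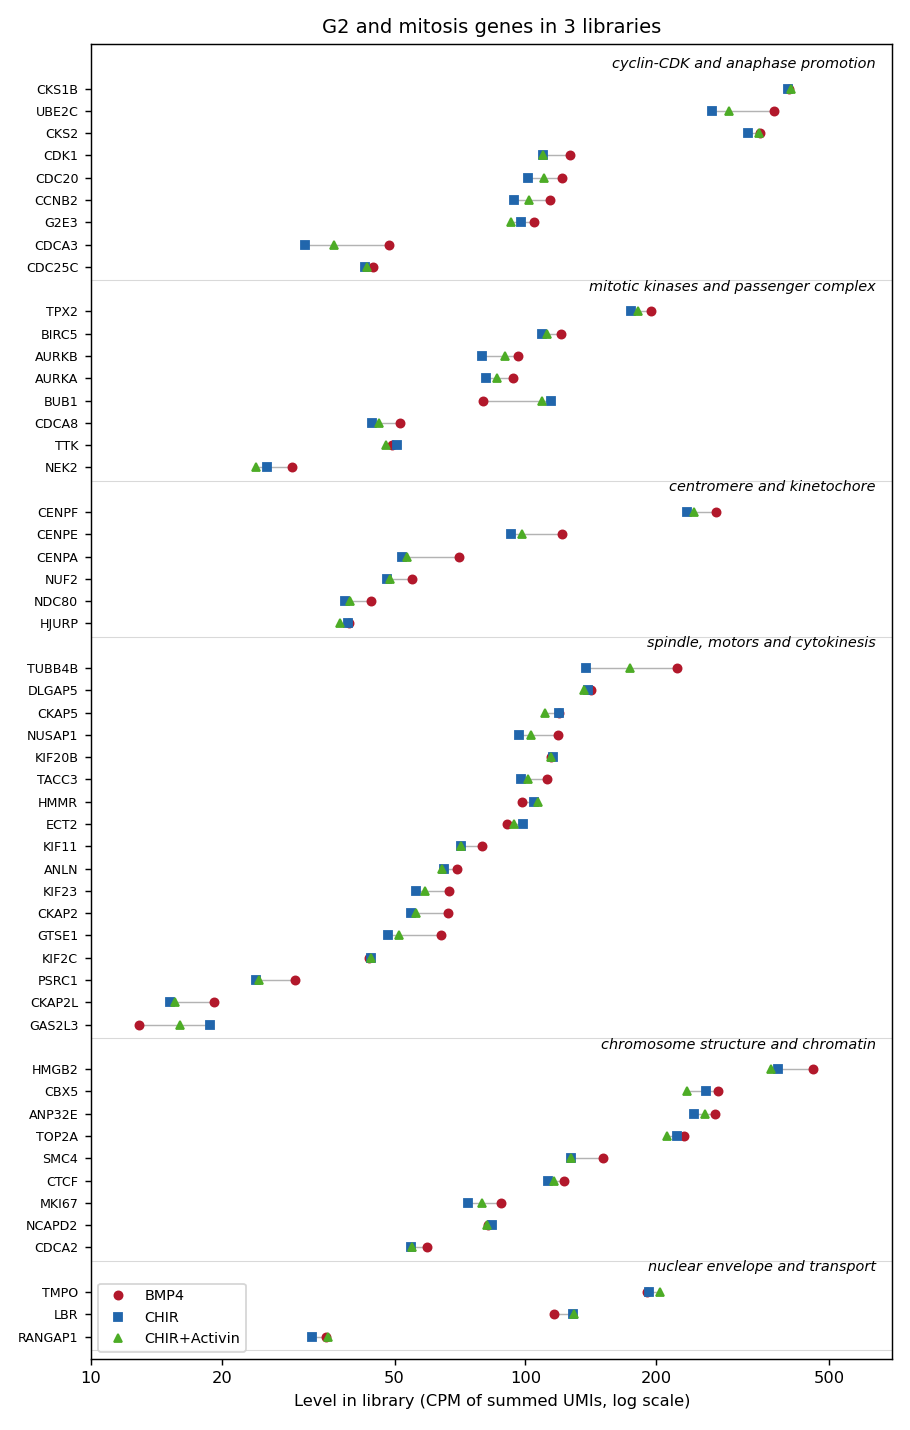
Level of each of the 52 genes (horizontal axis, CPM of the summed UMIs, log scale) in BMP4 (circles), CHIR (squares) and CHIR+Activin (triangles), grouped by role, with no error bars because there is 1 library per treatment. TUBB4B spans the widest ratio, from 138 to 223.5 CPM, and BUB1 and GAS2L3 are lowest in BMP4.

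Genes of the cell cycle outside the 52 were counted in the same way. The shares of all genes to set beside them were 15.3% lower and 22.5% higher in CHIR. In CHIR+Activin those shares were 14.2% and 15.1%. Of 48 other mitotic genes compared, 9 were lower and 3 higher in CHIR than in BMP4, with a median log2 ratio of -0.12, and 4 were lower and 2 higher in CHIR+Activin, with a median of -0.11. CEP55, which acts in abscission, stood at 55.2, 32.8 and 37.6 CPM, and SKA1, a kinetochore protein, at 32.0, 19.9 and 21.0 CPM. WEE1, the kinase that restrains CDK1, was higher outside BMP4, at 45.6, 73.5 and 59.8 CPM, and the checkpoint protein BUB1B, a relative of BUB1, stood at 82.6, 99.8 and 92.5 CPM. Of 42 S phase genes compared, 5 were lower and 2 higher in CHIR, with a median of -0.08. Of 14 regulators of G2 and mitosis transcription, among them FOXM1 at -0.26 in CHIR, 0 passed 1.2-fold in CHIR and 1 was lower in CHIR+Activin, NFYC, a subunit of the factor that binds CCAAT, at -0.27.

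The 52 genes differ in how closely they follow one another from cell to cell. For each gene a phase ratio was computed, which is its CPM in the 25% of thinned cells with the highest sum of the other 51 genes over its CPM in the 25% with the lowest. Over the 3 libraries (geometric mean) the median gene had a phase ratio of 2.16, with 29 genes at 2 or more, 11 at 3 or more and 12 below 1.5. The ratio was above 1 in every library for 50 genes and below 1 for CBX5 and ANP32E. Because the ordering uses the other members, the ratio says how a gene runs with them in the same cells and is no test of its own.

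AURKA had the highest phase ratio, with 31.9 CPM in the lowest and 174 CPM in the highest cells of BMP4, 27.2 and 148 in CHIR, and 28.99 and 157 in CHIR+Activin. Its phase ratios were 5.45, 5.44 and 5.40, with a mean of 5.43. UBE2C followed at 4.54, TOP2A at 4.42, CENPA at 4.19 and CKAP2L at 3.85. By role, the median phase ratio was 3.22 for centromere and kinetochore, 2.30 for kinases, 2.16 for cyclin-CDK control and for spindle genes, 1.27 for nuclear envelope and 1.25 for chromatin. The lowest of each role were NUF2 at 1.96, BIRC5 at 1.44, CKS1B at 1.30, TUBB4B at 1.44, TMPO at 1.04 and ANP32E at 0.945, and RANGAP1 was the highest of the envelope genes at 1.59. ANP32E stood at 289 CPM in the lowest and 276 in the highest cells of BMP4, and CBX5 at 282.5 and 281 CPM, so these 2 abundant genes added to the member sum without running with it. HMGB2, the most abundant member in BMP4, had a phase ratio of 1.21. BUB1 and GAS2L3, the genes higher outside BMP4, had phase ratios of 1.74 and 2.66, within the range of the rest.

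The order of the genes was much the same in each library. Across the 52 genes, the log2 phase ratios of any pair of libraries had a Pearson r of 0.969 to 0.983, with medians of 2.04 in BMP4, 2.21 in CHIR and 2.18 in CHIR+Activin. Genes with a phase ratio at or above the median had a median log2 ratio of -0.21 in CHIR against BMP4, and those below it of -0.11. In CHIR+Activin against BMP4 these medians were -0.17 and -0.09. Over the 52 genes the relation was loose, with Pearson r of -0.22 and Spearman rho of -0.31 for CHIR against BMP4, where TOP2A combined a high phase ratio with a log2 ratio of -0.05 and TUBB4B a low one with -0.70.

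**Figure D3:**
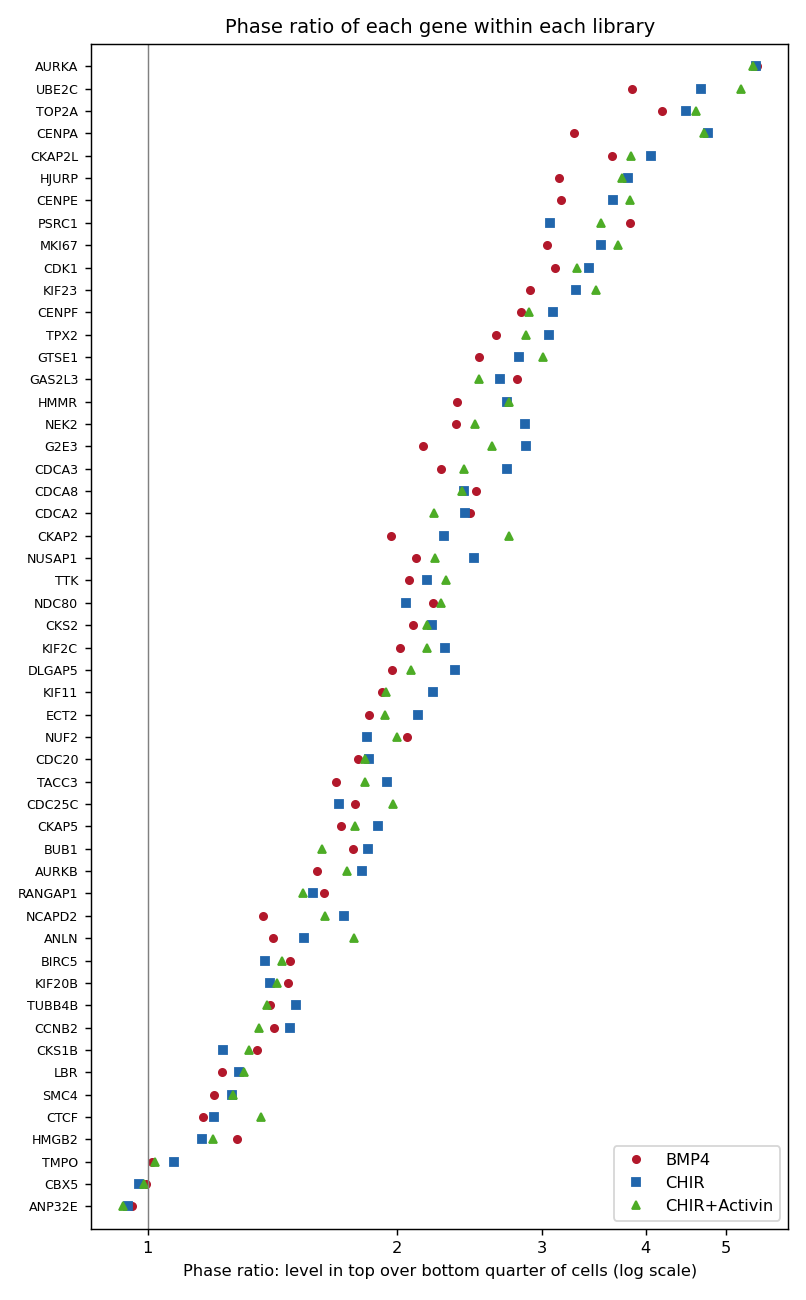
Phase ratio of each of the 52 genes (horizontal axis, log scale) in BMP4 (circles), CHIR (squares) and CHIR+Activin (triangles), ordered by the geometric mean over libraries, with a line at 1. AURKA leads at 5.43, and CBX5 and ANP32E lie just under 1 in every library.

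Promoter sequences are shown for genes at both ends of that order, marked for the CHR and CCAAT elements that late cell cycle genes are known for. RefSeq windows of 250 bases before the gene start (GRCh38.p14) were matched by symbol for 44 of the 52 genes, and TPX2, CDCA2, TTK, BIRC5, AURKA, ANP32E, HMGB2 and UBE2C had no match. The 3 matched genes with the highest phase ratio and the 2 with the lowest are printed 5′ to 3′ on the gene's strand, ending at the base before the start, with capitals for TTTGAA (the CHR core) and CCAAT on either strand, so that TTCAAA and ATTGG are the same motifs on the other strand. They are TOP2A at chr17:40417897-40418146 (minus strand), CENPA at chr2:26785806-26786055 (plus), CKAP2L at chr2:112764610-112764859 (minus), TMPO at chr12:98515323-98515572 (plus) and CBX5 at chr12:54280123-54280372 (minus), all in the 5' flank of their genes.
TOP2A: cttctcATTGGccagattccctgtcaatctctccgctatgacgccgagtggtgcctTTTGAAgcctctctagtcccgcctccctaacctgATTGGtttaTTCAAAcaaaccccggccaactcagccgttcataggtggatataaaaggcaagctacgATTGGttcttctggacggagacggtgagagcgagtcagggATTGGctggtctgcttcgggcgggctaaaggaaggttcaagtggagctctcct
CENPA: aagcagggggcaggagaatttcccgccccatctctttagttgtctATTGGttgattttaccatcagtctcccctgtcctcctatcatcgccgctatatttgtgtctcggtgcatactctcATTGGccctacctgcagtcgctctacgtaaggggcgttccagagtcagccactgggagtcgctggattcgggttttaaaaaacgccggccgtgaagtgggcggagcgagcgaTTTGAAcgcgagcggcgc
CKAP2L: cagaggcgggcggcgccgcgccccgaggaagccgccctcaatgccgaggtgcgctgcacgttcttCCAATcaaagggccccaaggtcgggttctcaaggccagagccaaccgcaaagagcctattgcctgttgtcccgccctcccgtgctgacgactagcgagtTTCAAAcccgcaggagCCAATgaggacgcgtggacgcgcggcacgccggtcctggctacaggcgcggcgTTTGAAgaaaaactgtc
TMPO: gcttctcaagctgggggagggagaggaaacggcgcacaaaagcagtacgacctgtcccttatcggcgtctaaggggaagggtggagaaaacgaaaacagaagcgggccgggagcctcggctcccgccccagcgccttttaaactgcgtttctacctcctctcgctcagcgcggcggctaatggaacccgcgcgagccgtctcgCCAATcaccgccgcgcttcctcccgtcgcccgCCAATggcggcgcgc
CBX5: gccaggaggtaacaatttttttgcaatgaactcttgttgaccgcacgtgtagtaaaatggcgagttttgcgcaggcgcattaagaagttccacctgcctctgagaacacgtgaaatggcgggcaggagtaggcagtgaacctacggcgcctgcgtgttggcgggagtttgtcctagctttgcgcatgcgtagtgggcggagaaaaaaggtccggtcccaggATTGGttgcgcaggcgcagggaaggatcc

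The TOP2A window held 2 TTTGAA and 4 CCAAT motifs, CENPA 1 and 2, and CKAP2L 2 and 2, whereas TMPO held 0 and 2 and CBX5 0 and 1. In CENPA the TTTGAA motif lies 18 to 13 bases before the start, and in CKAP2L 1 lies 17 to 12 bases before it. Over the 44 matched genes, 23 windows (52.27%) held TTTGAA and 30 (68.18%) held CCAAT, against 13.57% and 33.04% of all 27305 windows. Both motifs stood together in 20 windows (45.45%) against 4.853% of all. The S phase genes had CCAAT in 22 of 33 windows but TTTGAA in 1, and the other mitotic genes had TTTGAA in 17 of 42. Among the 44 matched genes the median phase ratio was 2.13 for the 23 with TTTGAA and 2.16 for the 21 without, 2.21 for the 30 with CCAAT and 1.89 for the 14 without, and 2.29 for the 20 with both motifs and 2.16 for the 11 with neither. CENPE, at 3.54, had neither motif. A match describes letters in this window and not a bound site.

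The sum was next followed in cells with at least 1 UMI of a marker, compared with the other cells of the same library. TFAP2A marks amnion, SOX17 with TFAP2C primordial germ cells, MESP1 nascent mesoderm, TBXT the primitive streak and SOX2 epiblast. A UMI is a loose definition, since 66.6% of BMP4 cells, 34.9% of CHIR cells and 27.85% of CHIR+Activin cells were positive in more than 1 of these groups, and a deeper cell is more often positive. In BMP4, 88.89% of MESP1-positive cells were also TBXT-positive, and 54.5% of SOX17- and TFAP2C-positive cells had TFAP2A. Without the genes that chose the cells, most other markers of each group were higher there. In BMP4, the 8 other amnion-like genes summed to 147 CPM in TFAP2A-positive cells against 29.7 in the rest, with 8 higher, and the 7 other nascent mesoderm-like genes to 389 against 47.4 in MESP1-positive cells, with 7 higher. The 7 other germ cell-like genes summed to 354 against 66.0 in SOX17- and TFAP2C-positive cells, with 6 higher and DPPA3 lower. The 7 other streak-like genes summed to 840.2 against 324 in TBXT-positive cells, and the 7 other epiblast-like genes to 2443 against 1366 in SOX2-positive cells. Some lists of other groups were higher too. The 9 germ cell-like genes summed to 316 against 138 CPM in TFAP2A-positive cells (8 higher). The 9 amnion-like genes summed to 172.5 against 79.2 in SOX17- and TFAP2C-positive cells (7 higher). The 8 nascent mesoderm-like genes summed to 587 against 206 in TBXT-positive cells (8 higher), and 0 of them were higher in TFAP2A-positive cells. In the MESP1-positive cells of CHIR, 5 of the 7 other nascent mesoderm-like genes were higher, with MESP2 and MSGN1 lower. The 7 summed to 16.3 against 7.74 CPM. All but LHX1 (10.3 CPM) lay below 10 CPM in both sets of cells, so these directions rest on few counts.

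TBXT-positive cells held a higher share of member UMIs than the other cells in all 3 libraries. The shares were 0.666% against 0.623% in BMP4 (7018 positive cells, log2 ratio 0.10), 0.609% against 0.555% in CHIR (3859 cells, 0.13) and 0.630% against 0.570% in CHIR+Activin (3148 cells, 0.14). Median depths were also higher in the positive cells, at 13205 against 11036 UMIs, 25987 against 19985 and 19010 against 15810. With cells thinned to 10000 UMIs before positive cells were found, which also leaves out 2360, 192 and 333 shallower cells, the ratios were 0.04, 0.10 and 0.13. The lower BMP4 value cannot be put down to depth alone, since the cells compared changed as well. Of the 52 genes, 3 were at least 1.2-fold higher and 1 lower in BMP4 (7.65% and 15.1% of all genes), 8 and 0 in CHIR (2.77% and 3.4%), and 11 and 0 in CHIR+Activin (5.92% and 6.88%).

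CENPE was among the 3 leading genes of the TBXT-positive cells in every library. It stood at 127 against 101 CPM in BMP4, 100.4 against 79.9 in CHIR and 112 against 84.9 in CHIR+Activin. Its log2 ratios of 0.33, 0.33 and 0.39 were 0.27, 0.33 and 0.34 in thinned cells. UBE2C led in CHIR at 296 against 225 CPM (0.40), and CKAP2L in CHIR+Activin at 17.8 against 13.4 CPM (0.41). In BMP4, UBE2C had a ratio of 0.29 that was 0.07 in thinned cells, while PSRC1 had 0.30 and 0.26. CENPA was among the first 3 in CHIR at 0.33 and in CHIR+Activin at 0.38. At the other end stood GAS2L3 in BMP4 at -0.30, with ECT2 and HMMR at -0.11 and -0.09, with ANP32E, CBX5 and KIF20B between -0.04 and -0.01 in CHIR and ANP32E, NDC80 and CKS1B between -0.02 and -0.01 in CHIR+Activin. S phase genes had median ratios of 0.03 in BMP4, -0.01 in CHIR and -0.00 in CHIR+Activin. Their summed share stood at log2 ratios of 0.01, -0.03 and -0.03 to the other cells, beside 0.10, 0.13 and 0.14 for the member sum.

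MESP1-positive cells of BMP4 (5590 cells) held 0.669% against 0.636%, a log2 ratio of 0.07, which was 0.05 in thinned cells and 0.02 in the 443 cells positive for no other marker. TUBB4B stood at 246 against 186 CPM (0.41), PSRC1 at 32.1 against 25.1 (0.36) and CENPA at 75.4 against 62.0 (0.28). GAS2L3 was lower there, at 11.1 against 15.8 CPM (-0.51), followed by ECT2 and DLGAP5 at -0.16 and -0.14. In all, 4 members were higher and 1 lower, where 9.74% and 17.2% of genes were. In CHIR+Activin the 259 MESP1-positive cells held 0.639% against 0.599% (0.09), with 7 members higher and 2 lower beside 15% and 15.7% of genes. TUBB4B led again, at 265 against 170.1 CPM (0.64), followed by LBR at 192 against 127 (0.60) and GTSE1 at 70.4 against 50.3 (0.48), and GAS2L3 was again lowest at 11.8 against 16.2 CPM (-0.46), with NEK2 and TOP2A at -0.40 and -0.19. These cells also held more RNA of the 6 endoderm-like genes, 1047 against 209 CPM, and the part of that difference was not tested. The 131 MESP1-positive cells of CHIR held 0.606% against 0.588% at a median depth of 31390 against 22824 UMIs, with 1 member higher, CKAP2L at 0.32, and 0 lower (4.83% and 4.65% of genes). GTSE1 and CDCA3 followed it at 0.19 and 0.18, and NUF2, ANLN and HMMR were lowest at -0.15, -0.10 and -0.10.

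TFAP2A-positive cells, analysed in BMP4 alone (1928 cells, against 35 in CHIR and 22 in CHIR+Activin), had the lower share of 0.629% against 0.666%, a log2 ratio of -0.08, or -0.11 in thinned cells. Their S phase share was lower too, at 0.406% against 0.445%. Among members 3 were at least 1.2-fold lower and 0 higher, where 13.1% and 10.2% of genes were. BUB1 stood at 65.4 against 84.9 CPM (-0.38), LBR at 98.9 against 122 (-0.31) and TMPO at 164 against 199.5 (-0.28), and in thinned cells these ratios were -0.45, -0.31 and -0.23. UBE2C, HMGB2 and CCNB2 were at the other end, at 0.13, 0.10 and 0.08.

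The 811 SOX17- and TFAP2C-positive cells of BMP4 had a sum level with the rest, at 0.654% against 0.657%, whereas their S phase share was 0.398% against 0.440%. The same 3 genes were lowest, with BUB1 at 62.5 against 82.3 CPM (-0.40), LBR at 92.3 against 119.5 (-0.37) and TMPO at 162 against 194.5 (-0.26), and 442 of these cells are among the TFAP2A-positive ones. CKAP2L stood at 24.9 against 18.5 CPM (0.43), UBE2C at 447 against 363.5 (0.30) and CENPA at 83.9 against 68.6 (0.29). Higher members numbered 3 and lower ones 2, where 12.9% and 16.1% of genes were.

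SOX2-positive cells differed little in their sum and in no fixed direction. They held 0.640% against 0.661% in BMP4 (1572 cells, log2 ratio -0.05), 0.595% against 0.572% in CHIR (4536 cells, 0.06) and 0.602% against 0.599% in CHIR+Activin (4257 cells, 0.01). In cells positive for no marker of another group the ratios were -0.07, -0.00 and -0.05. In BMP4, CKAP2L stood at 15.2 against 20.2 CPM (-0.42), SMC4 at 122 against 159 (-0.39) and TUBB4B at 185 against 234 (-0.34), while GAS2L3 was higher at 16.3 against 12.0 (0.44), followed by TOP2A at 0.22 and NCAPD2 at 0.15. That makes 1 member higher and 4 lower, where 12.9% and 13.7% of genes were. TUBB4B was lower in the SOX2-positive cells of the other libraries too, at -0.13 in CHIR and -0.36 in CHIR+Activin, and LBR stood at -0.29 and -0.39 there. Counts were 1 higher and 1 lower in CHIR (3.46% and 3.94% of genes) and 2 and 2 in CHIR+Activin (8.34% and 5.88%). The highest in CHIR were CENPA, TOP2A and TPX2 at 0.26, 0.24 and 0.24, of which CENPA stood at 0.05 in thinned cells, and in CHIR+Activin NDC80, TOP2A and HJURP at 0.28, 0.26 and 0.20. CBX5 at -0.14 in CHIR and SMC4 at -0.20 in CHIR+Activin completed the lowest 3.

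Cells with a UMI of none of these markers had the lowest share of the groups in each library, and they were also shallower. They held 0.568% against 0.661% in BMP4 (609 cells), 0.515% against 0.597% in CHIR (1074 cells) and 0.543% against 0.609% in CHIR+Activin (1139 cells), at median depths of 9476 against 12877, 17576 against 24312 and 14223 against 17984 UMIs. Lower members numbered 18, 26 and 16, where 10.0%, 4.12% and 2.07% of genes were lower, and higher members 1, 0 and 0 (21.7%, 4.59% and 1.28%). In cells thinned before the markers were read, 504, 2527 and 1964 cells had none of the markers, and the lower members numbered 3, 1 and 1. These are not the same sets of cells, and no share of all genes is at hand for the thinned counts. The 7 stress response genes summed to 96.6 against 61.2 CPM, 579 against 346 and 295 against 214 in these cells, and their part was not tested.

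Among cells positive for the same marker, BMP4 again held the highest share, but these are not the same cells in each library. Of TBXT-positive cells, 70.8% in BMP4, 2.38% in CHIR and 6.19% in CHIR+Activin were also MESP1-positive, and 12.5%, 62.2% and 53.9% were SOX2-positive. The member sum of TBXT-positive cells stood at a log2 ratio of -0.13 in CHIR and -0.08 in CHIR+Activin to those of BMP4, and that of SOX2-positive cells at -0.11 and -0.09. BUB1 was higher outside BMP4 in both kinds of cell, at 81.4 CPM in TBXT-positive cells of BMP4, 117 in CHIR and 116 in CHIR+Activin, and at 84.4, 113 and 107 CPM in SOX2-positive cells. TUBB4B stood at 232, 145.5 and 192 CPM in TBXT-positive cells and at 185, 134 and 159 CPM in SOX2-positive cells, so BMP4 was highest in both. GAS2L3 was lower in TBXT-positive cells of BMP4 (12.3 CPM) than of CHIR (19.4) and CHIR+Activin (16.2), and stood at 16.3, 19.5 and 16.5 CPM in SOX2-positive cells.

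**Figure D4:**
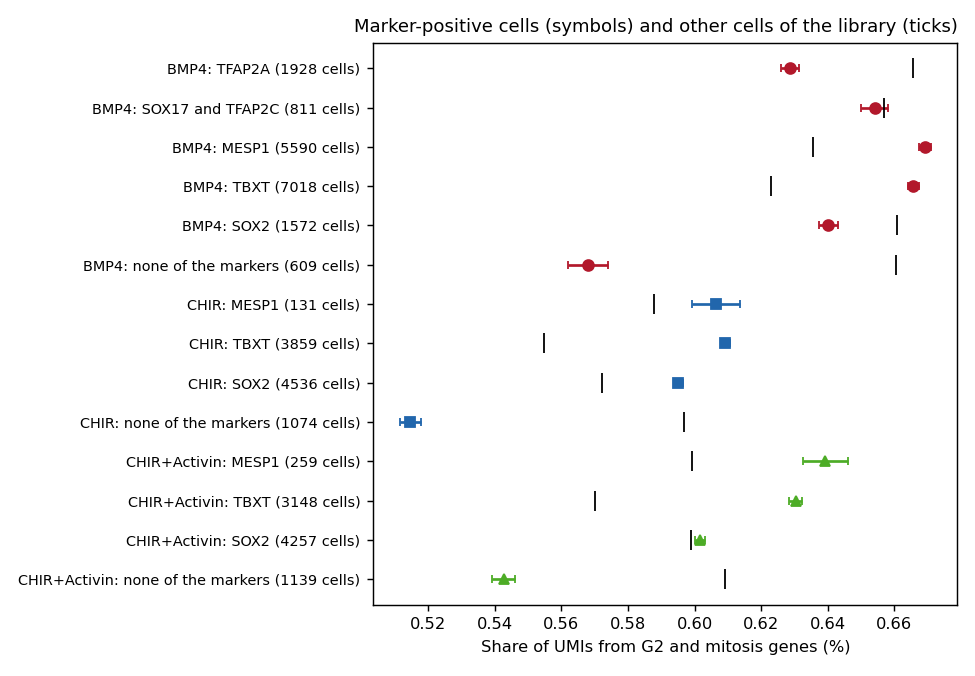
Share of UMIs from the G2 and mitosis genes (horizontal axis, percent) in cells positive for each marker (symbols, with exact 95% intervals of counting error) and in the other cells of the same library (ticks). TBXT-positive cells lie above the other cells in all 3 libraries, and cells with none of the markers lie below.

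**Figure D5:**
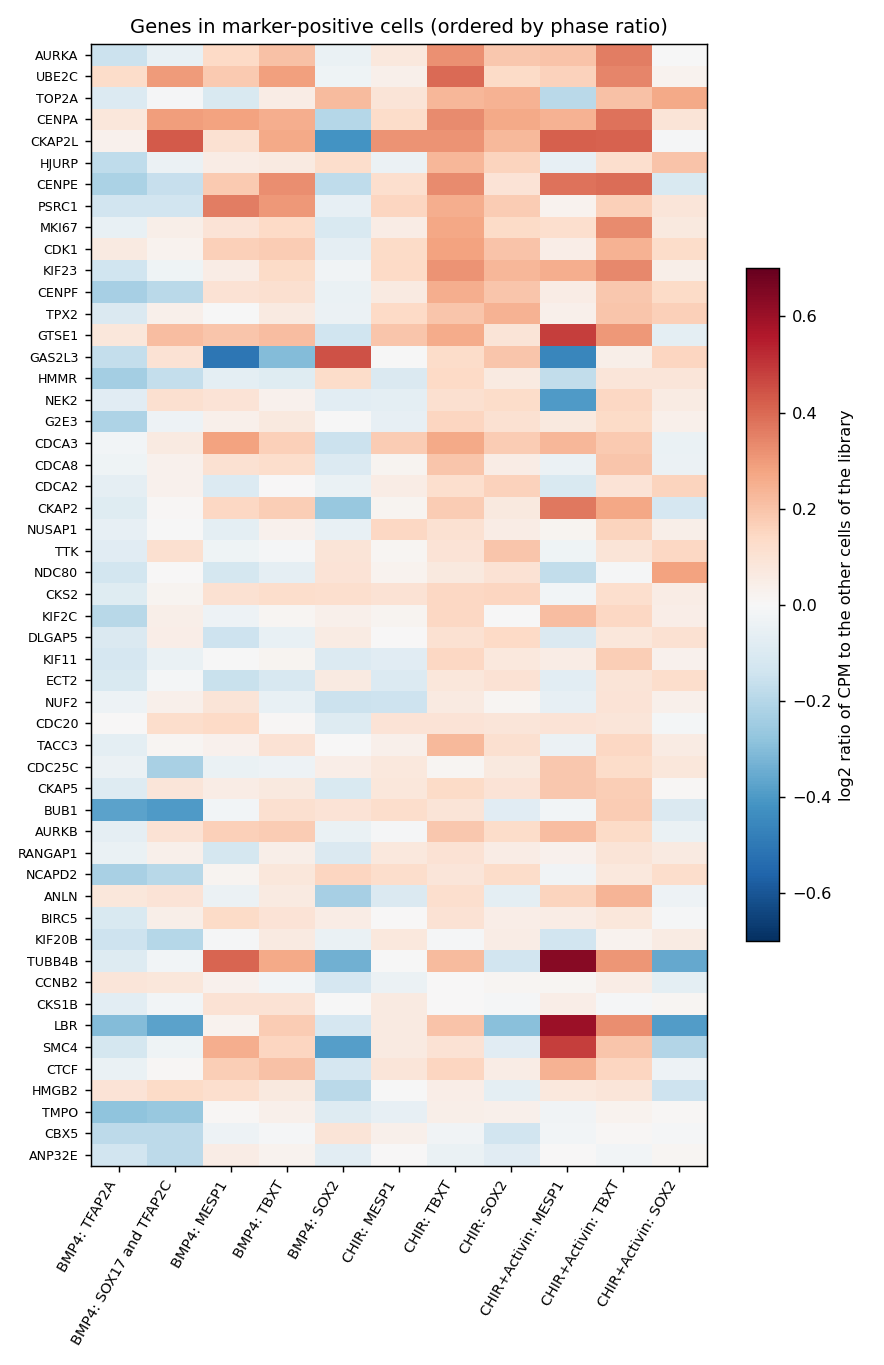
Log2 ratio of CPM of each of the 52 genes (rows, ordered by phase ratio) between marker-positive cells and the other cells of the same library (columns), in red where higher and blue where lower. TBXT-positive cells of CHIR and CHIR+Activin are red among the genes of high phase ratio, and BUB1, LBR and TMPO are blue in the TFAP2A column of BMP4.

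Genes outside the list that ran with it from cell to cell were mostly mitotic genes themselves. Among 9116 other genes with at least 10 CPM in every library, the 10 with the highest mean Pearson r between their log count and the log member sum, across thinned cells of the 3 libraries, were KPNA2 (0.431), CCNB1 (0.368), PLK1 (0.360), DEPDC1 (0.347), FAM83D (0.313), ASPM (0.312), SGO2 (0.309), UBE2S (0.307), PRC1 (0.284) and WWOX (0.280). The median gene had an r of 0.003. KPNA2, an importin alpha, was as abundant as the larger members, at 278, 265 and 280 CPM, and CCNB1, cyclin B1, followed UBE2C in its order, at 206.5, 167 and 187 CPM. These correlations describe cells that share a library and a fixed depth, and in counts this sparse they are low for nearly all genes.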

How the data were processed

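For each library the authors deposited a matrix of raw UMI counts (genes by barcodes) from Cell Ranger 8.0.1, per the file headers. The submitters' processing notes also name Seurat. As for the genome build, it was not given in the sources used here. CHIR came with 7706 and CHIR+Activin with 7391 called barcodes, BMP4 with all 1935344 droplets. A BMP4 barcode was taken as a cell (9440 were) if its UMIs reached 10% of the 99th percentile among the top 10000. Cells with at least 2000 genes and at most 15% of UMIs from MT- genes were kept, which removed 39, 622 and 515 barcodes.

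For each group of kept cells the UMIs of a gene were summed and scaled to CPM, and log2 ratios carry exact conditional binomial 95% intervals. Genes with at least 10 CPM in either group were compared, at 1.2-fold, with a group at 0 set at 3 counts. Doublets were not removed from the values given. An alternative left out the 6% of cells with the highest score of a Scrublet-type procedure. Scripts ran in Python 3.11.15 with numpy 2.4.6 and scipy 1.17.1 and were checked on simulated data. Other alternatives were stricter cell filters, thinning, other totals, centring, per-cell means, a lower CPM minimum other definitions of positive cells and, added after seeing the data, a fixed range of depth per cell.

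The members and gene lists were chosen with earlier results of these data known. All members are given. Those with values are the 5 highest and 5 lowest in each library pair, the highest and lowest phase ratio of each role, and the 3 highest and 3 lowest in each group of marker-positive cells. Of these, CDC20, CKAP5 and TTK are given above in ranges only. Their log2 ratios between CHIR+Activin and CHIR were 0.12, -0.11 and -0.09. Some others are given for their known role. CKS1B and CKS2 protein sequences had been planned and are not used here.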

Additional observations from a re-analysis of the deposited data

How the results depend on the processing

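No paired analysis was possible because each treatment has 1 library. Over 15 results and 78 alternatives, 29 values lay within the counting interval of the value given (counts within 1.5 times) and 49 outside it, and the cause was not tested. The sums of CHIR against BMP4, CHIR+Activin against BMP4 and CHIR+Activin against CHIR had log2 ratios of -0.20, -0.18 and 0.025 in thinned cells, -0.19, -0.12 and 0.078 centred on the median of all genes, and -0.14, -0.12 and 0.024 without CKS1B, HMGB2, CKS2, UBE2C and ANP32E, the 5 most abundant members. In cells of 10000 to under 20000 UMIs, added after seeing the data, they were -0.43, -0.29 and 0.14, with 39, 34 and 16 members apart in place of 15, 12 and 1. The share of all genes apart in that range was not computed. The means of per-cell shares gave -0.17 and -0.14 for the ratios to BMP4. With MT- and ribosomal protein genes left out of the total, CHIR+Activin stood at -0.12 to BMP4 and 0.045 to CHIR. Centring made the members apart between CHIR+Activin and CHIR 2, TUBB4B and CDCA3, in place of 1. Of the marker groups, with at least 2 UMIs of each marker, the ratios in BMP4 were -0.11 for TFAP2A, 0.026 for SOX17 and TFAP2C, 0.064 for MESP1, 0.084 for TBXT and -0.058 for SOX2, those in CHIR 0.12 for TBXT and 0.047 for SOX2, and those in CHIR+Activin 0.16 and 0.048. Thinned, they were -0.11 for TFAP2A, 0.048 for MESP1 and 0.037 for TBXT in BMP4, 0.10 and 0.031 for TBXT and SOX2 in CHIR, and 0.13 and -0.0073 in CHIR+Activin. Without the highest doublet scores they were 0.083 for MESP1, 0.11 for TBXT and -0.055 for SOX2 in BMP4, and 0.14 and 0.16 for TBXT in CHIR and CHIR+Activin. In cells positive for no other group, they were -0.062 for TFAP2A (336 cells), 0.062 for SOX17 and TFAP2C (89 cells), 0.020 for MESP1, 0.072 for TBXT and -0.069 for SOX2 in BMP4, 0.12 and -0.0044 for TBXT and SOX2 in CHIR, and -0.048 for SOX2 in CHIR+Activin. So the sign held under these alternatives for the library pairs, for TFAP2A, MESP1 and SOX2 in BMP4 and for TBXT in every library, and not for SOX17 and TFAP2C or for SOX2 in CHIR and CHIR+Activin. For the MESP1 sums in CHIR and CHIR+Activin no alternative ratio was computed. In thinned cells, the 175 MESP1-positive cells of CHIR+Activin held a median of 60 member UMIs against 56 in the others. Of the members 12 were higher and 2 lower there, in place of 7 and 2, and no share of all genes is at hand for these counts. At these depths counting intervals are narrow, and the number of libraries limits every comparison.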

Other observations

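Histone genes ran opposite to the G2 and mitosis genes from cell to cell. Of the 9116 other genes compared, the lowest mean Pearson r with the log member sum across thinned cells belonged to H1-3 (-0.469), H4C3 (-0.379), H1-5 (-0.260) and H1-2 (-0.245), and their values were alike in each library. H4C3, a core histone H4 gene, stood at 833 CPM in BMP4, 731 in CHIR and 721 in CHIR+Activin, and H1-3, a linker histone gene, at 149, 135 and 134 CPM. Replication-dependent histones are known to be made in S phase, and their mRNAs mostly lack the poly(A) tail by which this assay captures RNA. Within the members, 5 had a positive mean r with the S phase sum and 47 a negative one. The largest were TMPO at 0.113 and ANP32E at 0.102.

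G1 cyclins and CDK inhibitors spanned a wide range of levels. CCNE1, cyclin E1, stood at 23.9, 30.3 and 29.1 CPM, and CCND2, cyclin D2, at 217, 195 and 157.5 CPM, a log2 ratio of -0.46 between CHIR+Activin and BMP4. CCND1, cyclin D1, stood at 161, 187 and 179.5 CPM. CDKN1A, the p21 inhibitor, stood at 1.29, 3.47 and 3.02 CPM, below the minimum of 10 CPM in every library, and was not compared.

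The member share was not the same at every depth. From the shallowest to the deepest 25% of cells it was 0.583%, 0.599%, 0.724% and 0.668% in BMP4, 0.497%, 0.543%, 0.658% and 0.597% in CHIR, and 0.521%, 0.522%, 0.650% and 0.640% in CHIR+Activin. Among cells of 10000 to under 20000 UMIs it was 0.680% in BMP4 (5464 cells), 0.504% in CHIR (2388 cells) and 0.556% in CHIR+Activin (4227 cells). That range spans the median depth of BMP4 and of CHIR+Activin and lies below that of CHIR.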
